A study of Mus musculus with 2 samples.

Results

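Interferon-stimulated genes are the transcripts that cells induce when an interferon binds its receptor, and 37 of them were followed here in sorted mouse B cells. They were listed by name as known targets of interferon, with earlier results of these data known. A gene counted as measured where at least 1 probe set of the array named it alone, which held for 34 of the 37 genes, through 48 probe sets. In the whole data set 12393 genes were measured, by 20380 probe sets that name 1 gene. Ifi44 and Xaf1 had no such probe set here, and the only one for Isg15 is shared with Gm9706.

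The RNA came from splenic B cells sorted for surface IgM and IgD, a population made up mainly of mature recirculating cells. The samples used are 2 arrays of wild-type mice with no genetic modification, called replicate 1 and replicate 2 in accession order. The study was designed to compare such cells with cells lacking serum response factor (SRF), and the SRF-deficient side of it is not analysed here. The labels name neither a stimulus nor the age, strain or sex of the mice, and do not say whether the replicates came from separate animals. No test between groups was possible with 1 group of 2 arrays, so each result is a level on each array, a count or a difference between the arrays.

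Type I interferons signal through a receptor made of the Ifnar1 and Ifnar2 chains and the kinases Jak1 and Tyk2. These activate a complex of STAT proteins and Irf9, which binds the interferon-stimulated response element, a pair of GAAA blocks in the promoters of target genes. Interferon gamma uses its own receptor and a separate STAT dimer that binds the gamma-activated site. The induced proteins are known for restricting viruses and intracellular pathogens, and tonic signalling can keep part of the programme on at a low level without infection.

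Some of the promoters hold the letters of this element, and a few are set out here because genes above and below the expression floor, defined further on, both carry them. In the RefSeq promoter table for GRCm38.p6, which covers 250 bases before to 50 bases after each annotated start, 29 of the 37 genes had an entry. Each window was searched on both strands for GAAA, any 2 bases, then GAAA, the core of the response element. At least 1 window of 16 of the 29 genes held it, beside 3.99% of all 27025 genes in the table and 3.44% of its 32851 windows. The stretches below run 5′ to 3′ on the strand of the gene, with every match to the core in capitals and 10 bases on either side. Oas1a, Igtp and Rsad2 had signals above the expression floor on both arrays, Irgm1 and Gbp3 on replicate 2 only, and Ifit1, Bst2 and Cxcl10 on neither. Isg15 has no probe set of its own.
Oas1a: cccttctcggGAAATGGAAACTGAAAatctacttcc
Igtp: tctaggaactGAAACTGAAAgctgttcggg
Rsad2: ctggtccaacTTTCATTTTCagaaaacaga
Irgm1: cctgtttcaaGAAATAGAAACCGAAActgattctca
Gbp3: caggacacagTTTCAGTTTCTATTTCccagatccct
Ifit1: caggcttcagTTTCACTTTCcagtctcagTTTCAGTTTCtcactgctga
Bst2: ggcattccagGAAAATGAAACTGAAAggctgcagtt
Cxcl10: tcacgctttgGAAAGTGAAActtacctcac
Isg15: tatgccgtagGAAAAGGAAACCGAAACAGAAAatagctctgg

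In GRCm38.p6 the Oas1a stretch lies at chr5:120907520-120907555 on the minus strand and the Igtp stretch at chr11:58199512-58199541 on the plus strand. The Rsad2 stretch is at chr12:26456553-26456582 on the minus strand and that of Irgm1 at chr11:48871425-48871460, also on the minus strand. The Gbp3 stretch is at chr3:142559989-142560024 and the Ifit1 stretch at chr19:34640775-34640823, both on the plus strand. Bst2 lies at chr8:71537577-71537612, Cxcl10 at chr5:92349083-92349112 and Isg15 at chr4:156200865-156200906, all on the minus strand. All matches in these stretches lie upstream of the annotated start. GAAA blocks in a row gave 2 overlapping matches in Oas1a, Irgm1, Gbp3 and Bst2, and 3 in Isg15. In Ifit1 the 2 matches are separate.

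The element was found in genes on either side of the floor. Of the measured genes with a promoter entry, 4 of 7 above the floor on both arrays held the core (57.1%), and so did 11 of 19 of the others (57.9%). A stricter form, AGTTTC, any 2 bases, then TTTC, was in 2 of the 7 (28.6%) and 8 of the 19 (42.1%). The 4 were Oas1a, Igtp, Rsad2 and Trim30a, while no match was found in the windows of Samhd1, Trim25 and Ifi47. The gamma-activated site core, TTC, any 3 bases, then GAA, was found in 3 of the 7 and 7 of the 19, beside 9.55% of all genes in the table. In Bst2 and Ifitm3 it overlapped the response element. A match describes the letters of the window only, and no binding was measured.

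The deposited values are MAS5 signals, which are intensities on a linear scale with nearly the same trimmed mean on both arrays. An expression floor was set for each array at the 90th percentile of 89 probe sets that read 63 genes whose expression belongs to other organs, liver and brain among them. It was 183 on replicate 1 and 85.9 on replicate 2. The bacterial and phage control transcripts, which the array maker's procedure adds to each hybridization, were brighter on replicate 1 in 18 of 18 probe sets, by between 3.39-fold and 13.2-fold. The ratio of 3′ to 5′ signal of Actb was 3.57 on replicate 1 and 8.15 on replicate 2. For Gapdh it was 1.31 on replicate 1 and at least 9.59 on replicate 2, where the 5′ signal was below the floor and was set to it. What part these differences between the arrays had in the results below was not tested. B cell markers exceeded both floors in 10 of 11 cases, beside 28.9% of all genes, the exception being Pax5, with 21.5 and 15.6. By their brightest probe sets 6 of the 10 lay within 2-fold between the arrays. Cd79a gave 2931 and 192, 15.3-fold higher on replicate 1, and Cd74 was 2.12-fold higher there. Ebf1 and Cr2 were 3.33-fold and 2.42-fold higher on replicate 2.

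On both arrays 10 of the 34 genes, or 29.4%, were above the floor. The background was close to this: 28.9% of all 12393 genes were above it on both arrays, so the count says nothing particular about the family. Of the other-organ genes themselves, 3 of 63 were above it on both, or 4.76%. The 10 genes were Samhd1, Trim25, Trim30a, Ifi47, Igtp, Parp9, Parp14, Oas1a, Rtp4 and Rsad2. Replicate 1 taken alone gave 10 genes, or 29.4%, beside 35.6% of all genes. Replicate 2 alone, with its lower floor, gave 20, or 58.8%, beside 49.7% of all genes. The 10 further genes on replicate 2 only came to 29.4% of the family, beside 19.7% of all genes, and 0 of the 34 were above the floor on replicate 1 only, beside 5.62% of all genes. In the remaining 14 genes, 41.2% of the family beside 44.7% of all genes, every probe set lay below the floor on both arrays. A low signal from sorted cells cannot tell few expressing cells from little RNA in each cell.

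**Figure D1:**
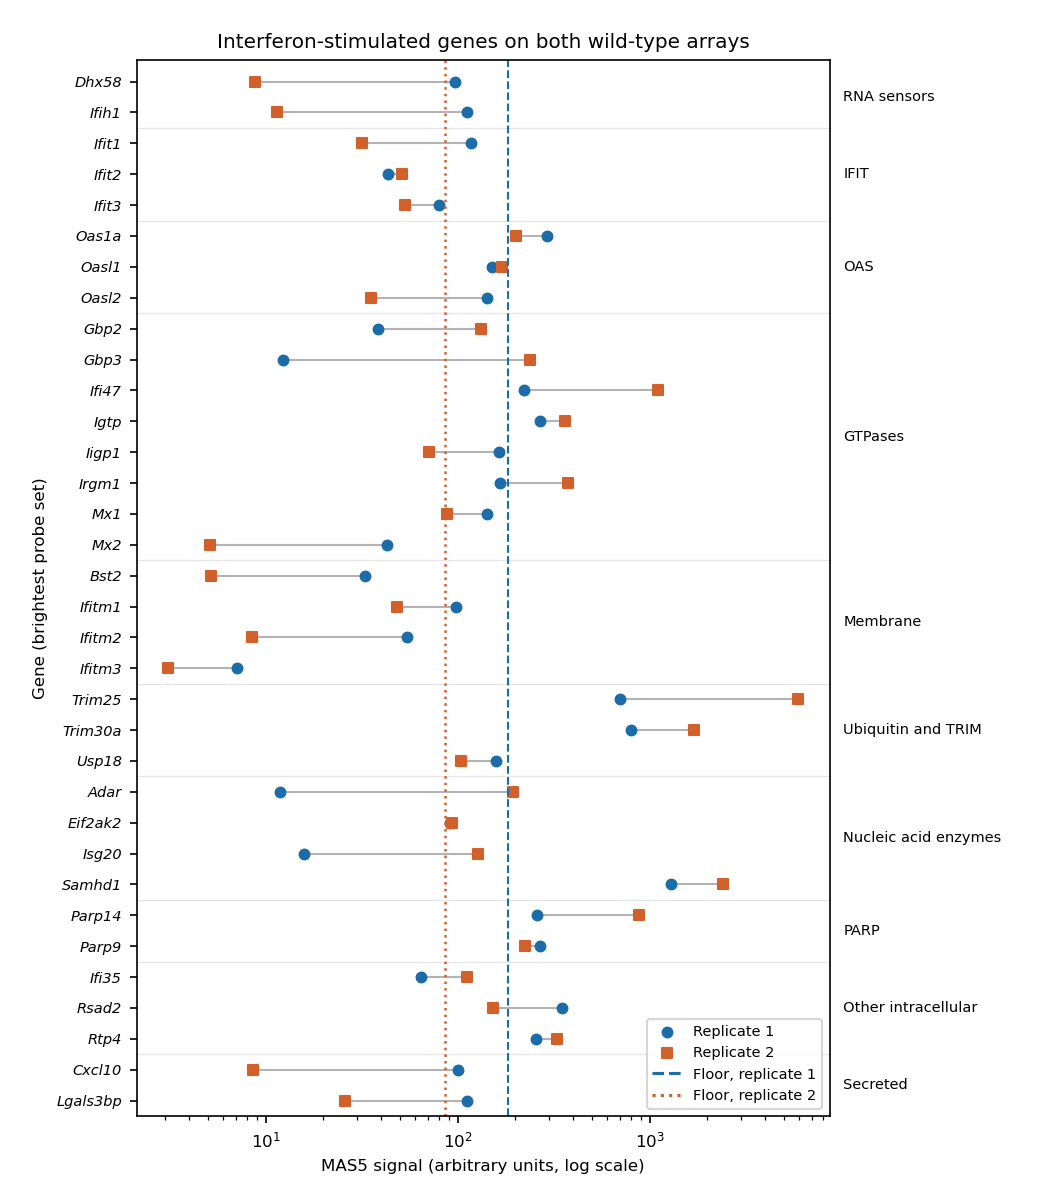
MAS5 signal (log axis) of the brightest probe set of each of the 34 measured interferon-stimulated genes, grouped by role, on replicate 1 (circles) and replicate 2 (squares), with the floor of replicate 1 (dashed, 183) and of replicate 2 (dotted, 85.9). All IFIT, membrane, sensor and secreted members lie left of the floor of their own array, and both symbols of Trim25, Trim30a and Samhd1 lie right of both floors.

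Ifih1 and Dhx58, both genes of RIG-I-like helicases, were below the floor on both arrays. Ifih1, which encodes the RNA sensor MDA5, gave 112 on replicate 1 and 11.4 on replicate 2. Dhx58, which encodes the regulatory helicase LGP2, was read by 3 probe sets, with 97.3 and 8.8, 28.4 and 9.6, and 4.0 and 84.9 on replicates 1 and 2. The last of these was just under the floor of replicate 2, and the probe sets disagreed on which array was higher.

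The IFIT proteins bind viral RNA that lacks the cap modifications of the host, and the 3 measured here were below the floor on both arrays, as were 44.7% of all genes. Ifit1 gave 118 and 31.7, Ifit2 gave 43.4 and 51.5, and Ifit3 gave 80.3 and 53.0 on replicates 1 and 2. These genes are among the most strongly induced by interferon in many cell types. Here their signals stayed within the range of the bulk of the other-organ probe sets that set the floor.

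Among the oligoadenylate synthetases, whose product activates the nuclease RNase L, only Oas1a of 3 genes was above both floors, beside 28.9% of all genes. It read 291 and 203 on replicates 1 and 2 (247 ± 62.5, SD, n = 2). Oasl1, an inhibitor of Irf7 translation, gave 151 and 171 and exceeded the floor of replicate 2 alone, with signals 1.13-fold apart. Oasl2 gave 143 and 35.3 and was below both floors.

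The interferon-inducible GTPases act on the membranes around intracellular pathogens or on viral nucleocapsids. Of their 8 genes 2 passed on both arrays, close to the 28.9% of all genes. Igtp, which encodes the regulatory GTPase Irgm3, gave 269 and 365 (317 ± 67.6, SD, n = 2). Ifi47 gave 221 on replicate 1, just above the floor of that array, and 1102 on replicate 2, and was 4.99-fold higher on replicate 2. Irgm1, a regulator of the same family with a role in autophagy, gave 165 and 376 and lay just under the floor of replicate 1. Igtp was thus the 1 GTPase gene above both floors with signals less than 2-fold apart.

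The other GTPase genes were dim on at least 1 array. Gbp3, a guanylate-binding protein gene, gave 12.3 on replicate 1 and 237 on replicate 2. Its relative Gbp2 was read by a pair of probe sets that went opposite ways, with 90.8 and 6.6 by one and 38.6 and 132 by the other, whose name ends in _x_at, which marks probes open to cross-hybridization. Mx1, a nuclear restriction factor for influenza virus that is defective in many laboratory strains, gave 142 and 88.3, only just above the floor of replicate 2. Mx2 gave 42.9 and 5.1. Iigp1 gave 165 and 70.7 by its brighter probe set and 116 and 84.8 by the other, below the floor throughout.

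Membrane proteins that block virus entry or release were below the floor in 4 of 4 cases on both arrays, beside the 44.7% of all genes. Ifitm1 gave 98.6 and 48.5, Ifitm2 54.6 and 8.5, and Ifitm3 7.1 and 3.1 on replicates 1 and 2. Bst2, which encodes tetherin, a tether of budding virions, gave 33.1 and 5.2. All 4 genes are read by 1 probe set each, and each signal was higher on replicate 1, the array with the higher floor. The secreted members were also below it on both, with 99.9 and 8.6 for the chemokine gene Cxcl10, and 112 and 25.9 for Lgals3bp, a glycoprotein gene.

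In the ubiquitin and TRIM group, 2 of 3 measured genes passed on both arrays, beside 28.9% of all genes. Trim25, which encodes a ubiquitin and ISG15 ligase that acts on the RIG-I pathway, gave 698 on replicate 1 and 5926 on replicate 2 by its brightest probe set, which was 8.48-fold higher on replicate 2. That probe set's name ends in _s_at, a class of probes shared between transcripts. A second probe set of Trim25 gave 378 and 1606, and the third gave 128 and 95.7, above the floor on replicate 2 only and lower there than on replicate 1. The gene was therefore above both floors by 2 of 3 probe sets, and the size and direction of its difference between the arrays depended on the probe set.

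Trim30a, a TRIM gene known as a brake on Toll-like receptor signalling, was above both floors by both of its own probe sets, and they went opposite ways. One gave 799 and 1705 and was 2.13-fold higher on replicate 2. The other gave 404 and 168 and was 2.41-fold higher on replicate 1. A probe set shared by Trim30a and its neighbour Trim30d gave 164 and 144.

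Usp18, the protease that removes ISG15 and damps interferon receptor signalling, gave 158 and 104 and exceeded the floor of replicate 2 alone. The probe set shared by Isg15, the ubiquitin-like modifier itself, and Gm9706 gave 149 and 159. It too exceeded only the floor of replicate 2.

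Among enzymes acting on nucleic acids, 1 of 4 genes passed on both arrays, close to the 28.9% of all genes. Samhd1, a dNTP hydrolase that limits reverse transcription, was above both floors by all 4 of its probe sets. The brightest read 1287 and 2418 on replicates 1 and 2 (1852 ± 799.8, SD, n = 2). The others gave 412 and 1019.5, 203 and 439.9, and 247 and 432. All 4 were higher on replicate 2, with log2 differences of 0.81 to 1.31.

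The other genes of that group passed on replicate 2 only. Adar, whose product edits adenosine to inosine in double-stranded RNA, gave 11.9 and 194. Isg20, an exonuclease gene, gave 15.9 and 127. Eif2ak2, which encodes the RNA-activated kinase PKR, gave 91.3 and 94.0 by one probe set and 124 and 62.9 by the other. Adar and Isg20, with Gbp3, were the 3 genes of the family with a signal under 20 on replicate 1 and above the floor on replicate 2.

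Both ADP-ribosyltransferase genes were above the floor on both arrays, beside 28.9% of all genes, each by its single probe set. Parp9, whose product works with the ubiquitin ligase Dtx3l, gave 267 and 224 (246 ± 30.2, SD, n = 2) and was 1.19-fold higher on replicate 1. Parp14, known in B cells as a cofactor of interleukin 4 signalling, gave 260.5 and 876 and was 3.36-fold higher on replicate 2.

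Of the 3 other intracellular members measured, Rtp4 and Rsad2 were above both floors, beside 28.9% of all genes. Rtp4, a receptor transporter gene, gave 256 and 331 by its brighter probe set (293 ± 53.4, SD, n = 2), while its other probe set gave 12.3 and 38.3, below both floors. Rsad2, which encodes viperin, a radical-SAM enzyme that makes a chain-terminating nucleotide, gave 350.3 and 153 by its brightest probe set and was 2.29-fold higher on replicate 1. Its other probe sets gave 84.0 and 12.2, and 47.9 and 14.6, below the floor on both arrays. Ifi35, a partner of Nmi, gave 64.6 and 112 and passed on replicate 2 only.

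**Figure D2:**
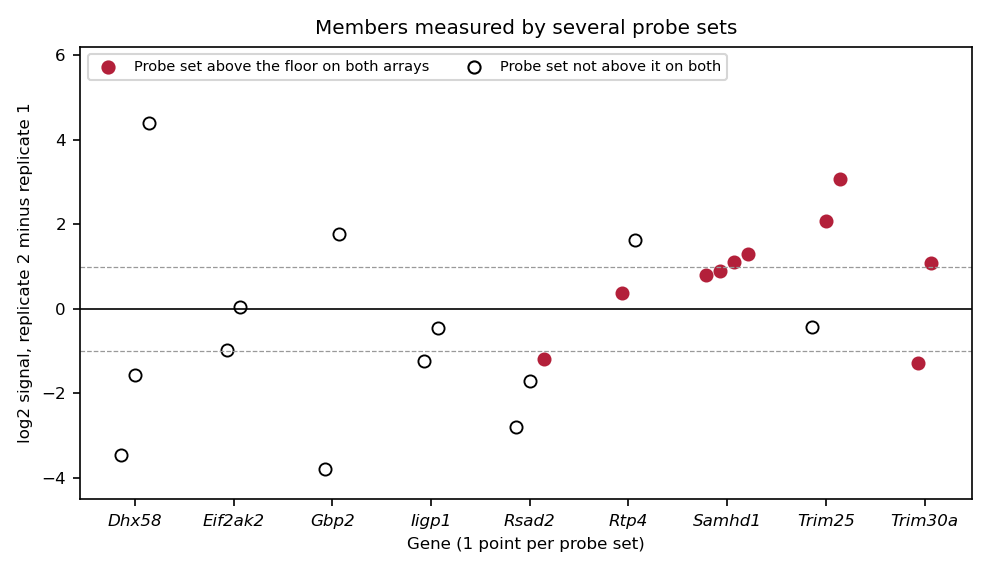
Difference in log2 signal, replicate 2 minus replicate 1, for each probe set of the 9 members read by more than 1; filled points are above the floor on both arrays and dashed lines mark 2-fold. The 4 points of Samhd1 lie together between 0.81 and 1.31, while the filled points of Trim30a lie at 1.09 and -1.27.

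Probe sets of a gene often disagreed. Of the 10 genes above both floors, 5 were read by 1 probe set and 5 by several, and in 7 of the 10 every probe set was above both floors. Samhd1, Trim25 and Trim30a had more than 1 probe set above both floors, and these shared a direction in 2 of the 3 genes, Trim30a being the exception. Rsad2, Rtp4 and Trim25 each had at least 1 probe set that did not pass on both arrays.

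Of the 10 genes, 7 were higher on replicate 2 and 3 on replicate 1, as deposited. Their median log2 difference was 0.67, against -0.01 over the 3576 genes above both floors. On the log2 scale the SD between the arrays, pooled over genes, was 1.05 for the 10 genes and 0.68 for all 3576. Signals were over 2-fold higher on replicate 2 for 4 of the 10, Trim25, Ifi47, Parp14 and Trim30a, beside 14.8% of all genes above both floors. For Rsad2 alone they were over 2-fold higher on replicate 1, beside 14.3%. Samhd1, Igtp, Rtp4, Oas1a and Parp9 lay within 2-fold. Centring each array on its median moved the median of all genes to 0.62 and that of the 10 genes to 1.31, where 7 genes were then over 2-fold brighter on replicate 2 and 0 on replicate 1. Under that centring Oas1a and Parp9, which were higher on replicate 1 as deposited, turned to replicate 2. Taken over all 34 genes with no floor, the median difference reversed to -0.39, beside -0.31 over all genes. With 1 group these differences measure only the spread between the samples, which may be technical.

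**Figure D3:**
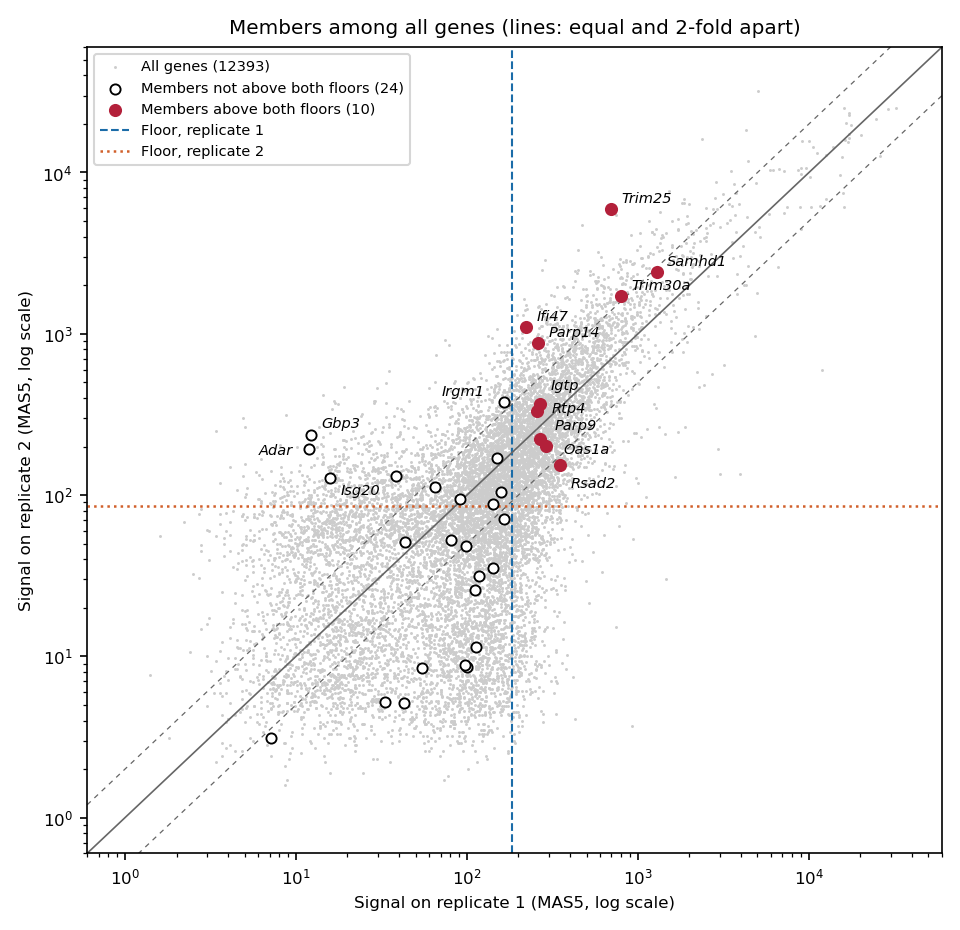
Signal on replicate 1 (x) against replicate 2 (y), both on log axes, for the brightest probe set of each of 12393 genes (grey), of the 10 members above both floors (filled) and of the other 24 members (open), with the floors and lines of equal and 2-fold different signal. The 10 filled points lie on both sides of the line of equality, Trim25 and Ifi47 farthest above it and Rsad2 farthest below, and Gbp3, Adar and Isg20 lie at the left, dim on replicate 1 only.

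The share of the family above the floor fell with that of all genes as the floor was raised. At the 50th percentile of the other-organ probe sets 70.6% of the family and 68.2% of all genes were above it on both arrays. At the 75th percentile the shares were 47.1% and 43.7%, at the 80th 44.1% and 39.2%, and at the 99th 17.6% and 17.3%. At the 95th percentile Ifi47 dropped out and 9 genes were left, 26.5% of the family beside 22.7% of all genes. With a floor at the array median Iigp1, Irgm1, Mx1, Oasl1 and Usp18 joined the 10.

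**Figure D4:**
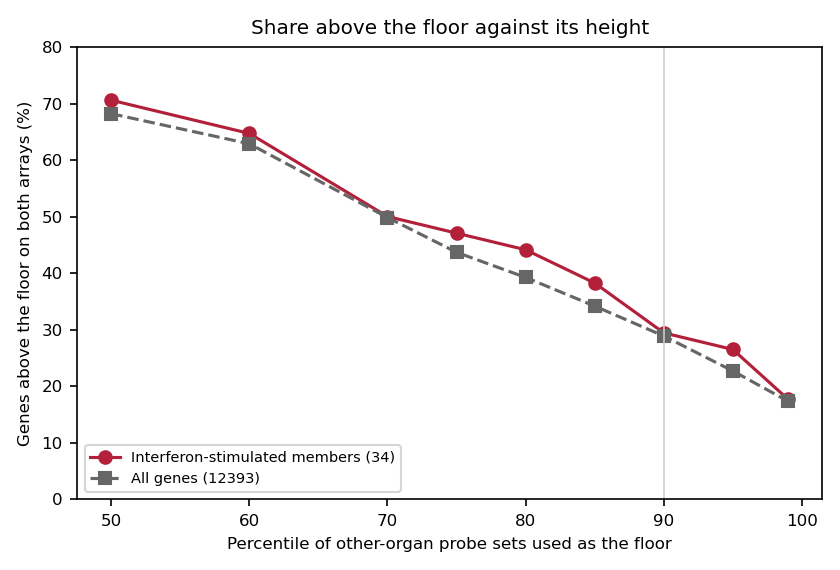
Percentage of genes above the floor on both arrays (y) against the percentile of other-organ probe sets used as the floor (x), for the 34 measured members (circles) and all 12393 genes (squares); the vertical line marks the 90th percentile used elsewhere. Both lines fall together, from 70.6% and 68.2% at the 50th percentile to 17.6% and 17.3% at the 99th.

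The interferons themselves were not above the floor. Of 9 measured ligand genes 0 passed on either array, and 44.7% of all genes likewise passed on neither. Ifnb1, the gene of interferon beta, gave 177 on replicate 1, just under the floor of that array, and 9.7 on replicate 2, while Ifng gave 70.2 and 23.5.

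Receptor chains and kinases exceeded both floors in 5 of 8 cases, beside 28.9% of all genes. Ifnar1 gave 359 and 401 (SD 30.0, n = 2), and Il10rb, a chain shared by the receptors for interferon lambda and interleukin 10, gave 326 and 380.5. Jak1 gave 1027 and 671 by its brightest probe set. Jak2 gave 321 and 704 by one probe set and 264 and 131 by the other, in opposite directions, and Ifngr2 likewise gave 237 and 116, and 26.1 and 401. Ifnar2, Ifngr1 and Tyk2 passed on replicate 2 only.

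Transcription factors of the pathway exceeded both floors in 5 of 8 cases, beside 28.9% of all genes. All 5 were within 2-fold by their brightest probe sets, beside 70.8% of all genes above both floors. Irf8, a regulator of B cell and myeloid development, gave 2032 and 3005, Irf1 628 and 801, Irf3 539.6 and 844, and Irf5 492 and 337. By its other probe set Irf8 gave 567.5 and 1325, and Irf5 gave 273 and 59.7, below the floor of replicate 2. Irf3 passed on both arrays only by a probe set ending in _x_at. Its others gave 138 and 121.5, 133.5 and 118, and 163 and 298, below the floor of replicate 1. Irf9, the DNA-binding partner of the STAT proteins, gave 226 and 254. Irf7, which is itself induced by interferon, gave 305 and 49.4 and passed on replicate 1 only. Stat2 gave 224 and 84.5 by one probe set and 83.3 and 186 by the other, so that it passed on each array by a different probe set.

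Regulators that damp the pathway passed on both arrays in 3 of 4 cases, beside the same 28.9%. Ptpn2 gave 301 and 1250 by its brightest probe set, 4.16-fold higher on replicate 2, but 528 and 543 by another. Pias1 gave 450.0 and 415 by its brightest probe set. Its others gave 37.8 and 120, and 97.4 and 153, below the floor of replicate 1. Socs3 passed on both arrays only by a probe set ending in _x_at, with 203 and 90.4, just above both floors. Socs1, a feedback inhibitor, gave 5.4 and 12.5. Upstream sensing genes passed in 5 of 12 cases, or 41.7%, beside 28.9%. Unc93b1, the chaperone of endosomal Toll-like receptors, gave 745 and 452. Tbk1, the kinase of Irf3, gave 379 and 622 by a probe set ending in _s_at, but 12.3 and 131 by its other. Sting1, the adaptor for cytosolic DNA, gave 248 on replicate 1 and was 2.48-fold higher there. The receptor gene Tlr9, with 168 and 90.1, and that of its adaptor Myd88, with 165 and 141, passed on replicate 2 only.

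A further list of 62 interferon-stimulated genes outside the 37, of which 43 were measured, gave 18 above both floors, or 41.9% beside 28.9% of all genes. Their median log2 difference was -0.30, against 0.67 for the 10 genes. Those of highest mean signal were Shisa5 with 15702 and 12559, Helz2 with 804 and 2024, Ifi27l2a with 802 and 660.4, and Slfn8 with 471 and 996. Shisa5 is also known as a p53 target of the endoplasmic reticulum, and Helz2 as a nuclear receptor coactivator. Helz2 and Slfn8, with Trim34a at 241 and 511, were the 3 brighter on replicate 2 by over 2-fold, and Apobec3, Epsti1, Lgals9 and Sp110 were the 4 brighter on replicate 1. For Sp110 this rests on a probe set with 492 and 76.5, below the floor of replicate 2, while the one above both floors gave 235 and 147. The other probe set of Trim34a gave 137 and 55.1, below both floors and higher on replicate 1.

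Markers of 8 other cell types were above both floors in 5 of 61 cases, or 8.20%, beside 28.9% of all genes. Their part in the signals of the family was not tested. The monocyte and macrophage list gave 2 of 15, Csf1r with 286 and 249 and Lyz2 with 291 and 178, and its summed signal was 1379 on replicate 1 and 1236 on replicate 2. On replicate 2 taken by itself 6 of the 15 were above the floor, C1qb, Ccr2, Mpeg1 and Vcam1 among them, beside 49.7% of all genes. Cd14, Adgre1, Fcgr1 and Marco were below it on both arrays. The neutrophil list gave 2 of 7, Ngp and S100a9, with a summed signal of 971 and 948. S100a8 gave 164 and 450 and passed on replicate 2 only, while Ltf gave 203 and 8.5 and passed on replicate 1 only. The list for plasmacytoid dendritic cells, the main producers of type I interferon, gave 1 of 4, Pacsin1 with 232 and 168, and a summed signal of 406 and 465. The other probe set of Pacsin1 gave 186 and 66.5, below the floor of replicate 2. On replicate 2 by itself 3 of the 4 were above the floor, beside 49.7% of all genes. Ccr9 gave 117 and Klk1 125 there. Conventional dendritic cells, T cells, NK cells, erythroid cells and stroma gave 0 of 35 on both arrays. Their summed signals, mostly of genes below the floor, were higher on replicate 1. They were 422 and 201 for conventional dendritic cells, 714 and 266 for T cells, and 438 and 410.5 for NK cells. Erythroid cells gave 631 and 157, and stroma 713 and 239. The other-organ genes, summed in the same way, gave 5588 on replicate 1 and 2557 on replicate 2. Of the conventional dendritic, T, NK, erythroid and stromal markers, Lat, Gata1 and Ermap passed on replicate 1 only, with 230.1, 291 and 191 there. Itgax, Prf1 and Col1a2 passed on replicate 2 only, with 110, 133 and 99.9 there.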

How the data were processed

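Sorted splenic B cells were measured on 2 arrays, 1 per sample, both wild-type. Per the labels' protocols, biotinylated cRNA was made from 6 µg of total RNA. The deposited values are intensities on a linear scale. The submitters' processing notes name MAS5; its version and parameters are not given in the sources used here. With 2% trimmed off either end, the column means were 150.03 (replicate 1) and 150.06 (replicate 2), although the medians, 103 and 66.6, differed. No detection calls were used. Precision is limited by having 2 arrays.

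Control probe sets (64) were set aside, which kept 22626. Genes were named by the supplied platform annotation from probe sets naming 1 gene, and the 34 member symbols were unchanged in RefSeq's GRCm38.p6. For each gene the probe set of highest mean log2 signal, called its brightest, gave the level, and the gene counted as above the floor where at least 1 probe set was above it on both arrays. Differences are log2 signals, replicate 2 minus replicate 1, on the deposited scale. No p-value was computed. Every member is named. Of the other lists, examples were drawn mainly from genes of highest mean signal above both floors and genes over 2-fold apart. Not every such gene is named, and other examples, some below the floor among them, were chosen after their values were seen. The members and all gene lists were chosen with earlier results of these data known. Alternatives were other floors, quantile normalization, median centring, log2(signal + 32), other probe set summaries and each array alone. Python 3.11.15, pandas 2.3.3 and numpy 2.4.6 were used, and the code was tested on simulated data.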

Additional observations from a re-analysis of the deposited data

How the results depend on the processing

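Of the 10 genes above both floors, all 10 passed without probe sets ending in _x_at, and with probe sets naming several genes included. None of the 10 had passed by an _x_at probe set alone. Either step could therefore drop a gene only by moving the floor. The 10 genes also passed after quantile normalization. That step keeps the order of signals within an array, so it could not change which genes passed. A floor at the 95th percentile gave 9, one at the array median 15, and requiring every probe set to pass gave 7. Leaving out 1 array gave 10 on replicate 1 (29.4%, beside 35.6% of all genes) and 20 on replicate 2 (58.8%, beside 49.7%). The median log2 difference of 0.67 was 0.38 after quantile normalization, with 3 genes brighter by over 2-fold on replicate 2 and 1 on replicate 1. Without a floor it reversed to -0.39 over all 34 genes, beside -0.31 over all genes, with 9 genes brighter by over 2-fold on replicate 2 and 13 on replicate 1. Centring on the array median gave 7 and 0, and the floor at the array median 2 genes over 2-fold higher on replicate 1. Single genes reversed in 4 of 100 recomputed differences. Changing or removing the floor leaves the difference of a gene as it is, so those settings could not reverse any and say nothing about stability. Under centring Oas1a turned to 0.11 and Parp9 to 0.38, and Trim30a turned to -0.087 under both means over probe sets. The stricter response element, AGTTTC, any 2 bases, then TTTC, was found in 10 of 29 genes and in 0.303% of all genes. The floors used for the agreement of probe sets were chosen after seeing the data and gave 2 of 3 genes at the 95th percentile, as before, and 2 of 4 at the array median. No paired analysis was possible because there is 1 group.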

Other observations

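The 14 genes below both floors were brighter on replicate 1 in 13 cases, the exception being Ifit2, and their brightest probe sets had a median of 98.0 there against 18.7 on replicate 2. Of all 5537 genes below both floors 72.4% were brighter on replicate 1, where the floor admits signals up to 183 against 85.9. Of the 9 interferon ligand genes, 8 were also brighter on replicate 1. Without a floor, 33.3% of all genes were brighter by over 2-fold on replicate 1 and 18.4% on replicate 2, beside 38.2% and 26.5% of the interferon-stimulated genes.

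Irgm2, a regulatory GTPase gene outside the 37, gave 9.3 on replicate 1 and 140 on replicate 2, and Slfn3 gave 202 and 3.4. Ccl5, a chemokine gene, gave 17.7 and 141. These genes were chosen after their values were seen.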
